A study of Mus musculus with 12 samples.

Results

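The immune checkpoint genes described here are 10 genes, chosen by symbol from the 55487 genes of the deposited count table, and each symbol matched 1 gene. They comprise the receptors Pdcd1, Ctla4, Lag3, Tigit and Havcr2, the PD-1 ligands Cd274 and Pdcd1lg2, the CD28 and CTLA-4 ligands Cd80 and Cd86, and Ido1, which encodes an enzyme that degrades tryptophan. The RNA came from breast tumours of 12 C57BL/6J mice, all carrying MMTV-PyMT, a transgene that drives the polyoma middle T oncogene from a viral promoter active in mammary epithelium. In 6 mice (Bad3SA) the pro-apoptotic protein BAD carried the 3SA change, in which regulatory serines are replaced by alanine, and in the other 6 (Bad_WT) Bad was wild type. The mice had reached their end point at 27.5 ± 2.85 weeks in Bad3SA and 24.0 ± 1.93 weeks in Bad_WT (SD, n = 6 each).

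Immune checkpoints are signals that restrain T cells once they have been activated. PD-1, the product of Pdcd1, is engaged by PD-L1 (Cd274) on tumour and myeloid cells and by PD-L2 (Pdcd1lg2), mainly on dendritic cells and macrophages. CTLA-4 competes with the activating receptor CD28 for CD80 and CD86 on antigen-presenting cells, while LAG-3, TIGIT and TIM-3 (Havcr2) add further restraint. Interferon-gamma is a strong inducer of Cd274 and Ido1.

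Total counts ran from 58096172 to 83296370 per tumour, so that 3 counts corresponded to between 0.0346 and 0.0544 CPM (counts of a gene relative to the total of its library, after TMM scaling). Counts of mammary epithelial markers (8 genes, led by Krt8, Krt18 and Epcam) summed to 5140 to 7100 CPM in Bad3SA and 5470 to 6790 CPM in Bad_WT. In bulk tumour RNA, fewer cells of a type and less RNA per cell cannot be told apart. Bad_WT 6 lay alone at the low end of the first principal component, which held 29% of the variance, and Bad3SA 4, 5 and 6 lay apart on the second (19.9%). Bad itself stood at 48.8 ± 12.4 CPM in Bad3SA and 47.0 ± 8.3 CPM in Bad_WT (log2 fold change 0.05, edgeR adjusted p = 0.889). The 3SA change alters codons, which counts per gene do not show, so the level of Bad does not check the genotype labels.

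PD-1 and its pair of ligands are shown first as sequence, because the ligand genes are neighbours on chromosome 19 and yet differed widely in level. Cd274 (ENSMUSG00000016496, GRCm38 chromosome 19, 29367455 to 29388095, plus strand) and Pdcd1lg2 (ENSMUSG00000016498, 29410919 to 29471161, plus strand) are separated by 22823 bases, and Cd274 lies 22.4 Mb from Bad on the same chromosome. Pdcd1 (ENSMUSG00000026285) lies on chromosome 1, 94038305 to 94052553, minus strand. The 250 bases before the transcription start in RefSeq on GRCm38.p6 are given 5′ to 3′ on the strand of the gene, for chr19:29367188-29367437 (Cd274), chr19:29410669-29410918 (Pdcd1lg2) and chr1:94052554-94052803 (Pdcd1). Capitals mark a match to AANNGAAA, the core bound by interferon regulatory factors, read on either strand.
Cd274: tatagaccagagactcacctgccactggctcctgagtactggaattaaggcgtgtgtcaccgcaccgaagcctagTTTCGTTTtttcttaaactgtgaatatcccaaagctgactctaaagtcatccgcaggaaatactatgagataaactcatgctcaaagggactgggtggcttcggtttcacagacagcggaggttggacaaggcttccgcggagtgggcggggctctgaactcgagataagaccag
Pdcd1lg2: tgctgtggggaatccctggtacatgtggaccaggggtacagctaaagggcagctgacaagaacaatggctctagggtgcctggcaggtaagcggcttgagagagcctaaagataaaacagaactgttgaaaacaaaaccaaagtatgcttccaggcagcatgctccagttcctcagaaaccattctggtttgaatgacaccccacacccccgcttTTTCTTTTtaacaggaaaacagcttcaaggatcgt
Pdcd1: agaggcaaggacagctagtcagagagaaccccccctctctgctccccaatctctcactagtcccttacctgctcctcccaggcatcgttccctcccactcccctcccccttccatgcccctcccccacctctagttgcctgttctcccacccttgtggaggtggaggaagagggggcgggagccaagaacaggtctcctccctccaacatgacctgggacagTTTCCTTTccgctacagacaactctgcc
Each of the 3 windows held 1 match, on the strand opposite to the gene, and 21.6% of 26750 RefSeq promoter windows of the same length held at least 1. No window held the longer interferon-stimulated response element (GAAA, any 2 bases, GAAA), which contains the shorter core and was present in 3.04% of windows, or the gamma-activated sequence TTCNNNGAA, present in 7.21%. The shorter core was searched after the longer element gave no match. Promoters of 7 of the 10 genes were available. The windows of Ctla4, Tigit, Havcr2 and Cd80, not printed here, held no match to the shorter core, the longer element or the gamma-activated sequence.

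The checkpoint genes covered a wide range of levels, compared here as CPM per kb of annotated exon and as medians over the 12 tumours. Ido1 stood highest at 3.78, followed by Havcr2 at 2.07, Lag3 at 1.62 and Cd86 at 1.56. Cd274 stood at 0.873, Pdcd1 at 0.59 and Tigit at 0.375. Cd80, Pdcd1lg2 and Ctla4 were lowest, at 0.135, 0.0466 and 0.0324. Per kb of the longest annotated transcript Cd86 stood at 2.25, above Havcr2 and Lag3. Neighbours in this order whose difference did not exceed its SD over the 12 tumours were Ido1 and Havcr2 (mean log2 difference 0.77, SD 1.54), Lag3 and Cd86 (-0.02, SD 0.34), and Pdcd1lg2 and Ctla4 (0.25, SD 1.77). Among the PD-1 ligands, the per-kb level of Cd274 was a median of 23.1 times that of Pdcd1lg2 in Bad3SA tumours (range 8.22 to 38.4) and 17.7 times in Bad_WT tumours (10.8 to 30.9). Cd86 exceeded Cd80 by a median of 11.5 times in Bad3SA (7.72 to 25.8) and 13.0 times in Bad_WT (11.4 to 23.5). In each tumour the more abundant member of each ligand pair was therefore the same.

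None of the checkpoint genes passed the test for a genotype difference. Of the 10 genes, 8 had enough reads to be tested and 0 passed at an adjusted p of 0.05 (edgeR quasi-likelihood test), where 1.38% of all 18019 genes tested did (0.622% higher and 0.76% lower in Bad3SA). At an unadjusted p under 0.05 the edgeR count was 1 of 8, Ido1, against 16.2% of all genes. DESeq2 also called 0 of 10, against 4.21% of all genes, and 2 of 10, Ctla4 and Ido1, were under 0.05 before adjustment, against 10.6%. With limma voom 0 of 8 were called, against 3.18% of all genes, and 0 were under 0.05 before adjustment, against 18%. With end-point age in the edgeR fit 0 of 8 passed and 0 were under 0.05 before adjustment, against 7.78% of all genes. In the authors' deposited table, whose fold changes are Bad_WT relative to Bad3SA, the smallest adjusted p values were 0.105 for Ctla4 (log2 fold change -1.07) and 0.117 for Ido1 (1.07). The DESeq2 run here gave larger changes at similar adjusted p, 1.58 (0.105) for Ctla4 and -1.68 (0.110) for Ido1, as Bad3SA over Bad_WT. The sizes of deposited fold changes are therefore not comparable with those fitted here, and the reason was not tested.

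**Figure D1:**
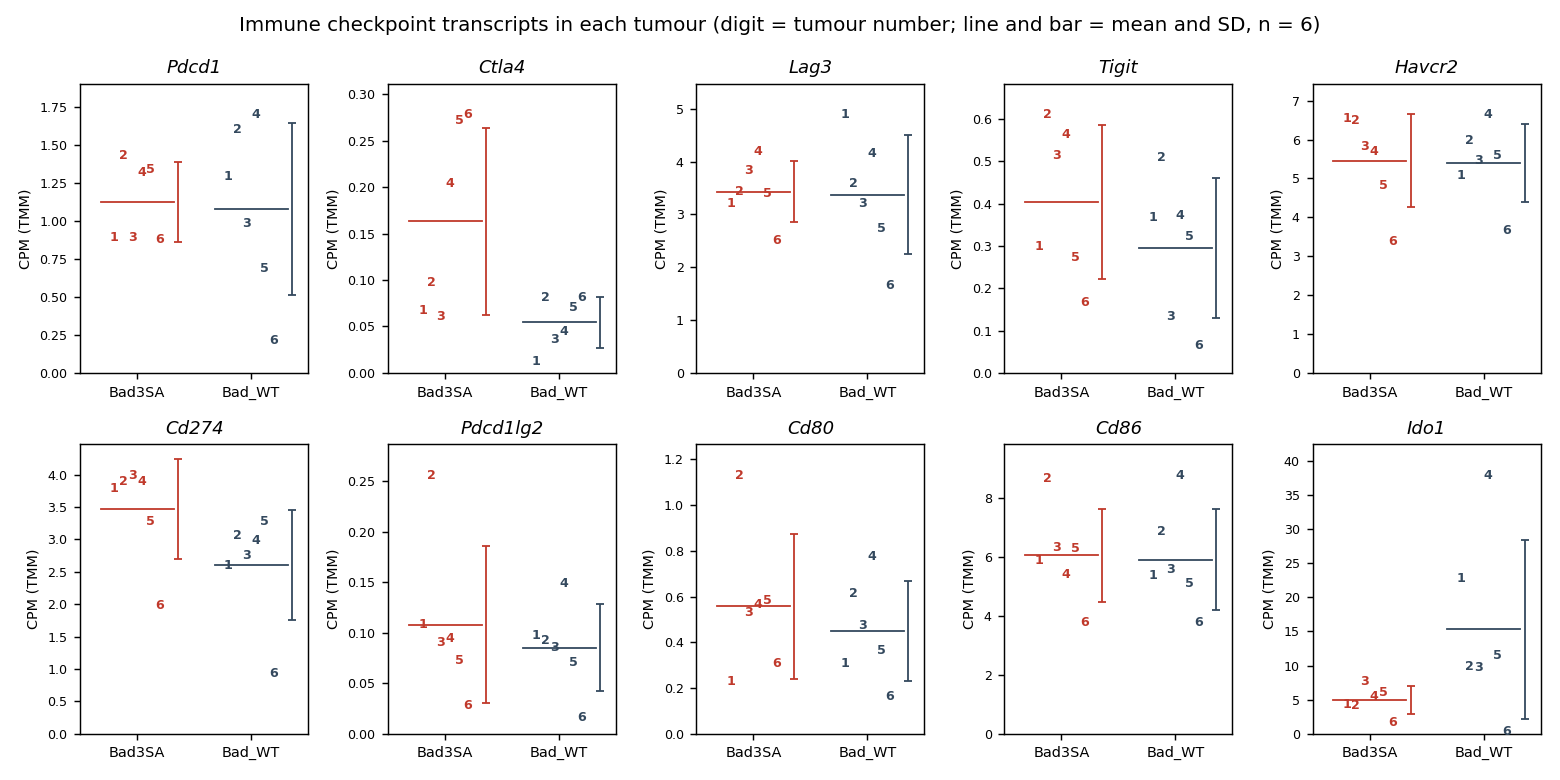
CPM of each checkpoint gene (y axis, TMM-scaled, from 0) in the 6 Bad3SA and 6 Bad_WT tumours, with digits giving tumour numbers, lines the mean and bars the SD. Bad_WT 6 is the lowest tumour for 7 of the 10 genes, Ido1 is at most 7.72 CPM in Bad3SA while Bad_WT reaches 37.9 CPM, and the raised Ctla4 values are those of Bad3SA 4, 5 and 6.

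Ido1 showed the largest fitted difference among the 8 genes tested, on a wide spread between Bad_WT tumours. IDO1 converts tryptophan to N-formylkynurenine, a step that limits T cell proliferation. The gene (ENSMUSG00000031551) lies on chromosome 8, 24584136 to 24597009, minus strand. It was at 1.63 (lowest), 4.88 (median) and 7.72 CPM (highest) in Bad3SA, against 0.359, 10.7 and 37.9 CPM in Bad_WT. All 6 Bad3SA tumours lay below the Bad_WT median and all lay inside the Bad_WT range, because Bad_WT 6 was the lowest of the 12. The other 5 Bad_WT tumours, at 9.76 to 37.9 CPM, lay above every Bad3SA tumour. Mean levels were 4.89 ± 2.06 CPM in Bad3SA and 15.4 ± 13.1 CPM in Bad_WT (SD, n = 6 each). The log2 fold change was -1.65 (SE 0.68, 95% interval -3.13 to -0.18), and it did not pass over all genes (edgeR adjusted p = 0.263). Without Bad_WT 6 it was -1.91 (edgeR adjusted p = 0.0547), and without Bad_WT 4, the tumour with the most Ido1, it was -1.17 with an adjusted p of 0.354 in edgeR. Bad_WT 4 also had the highest summed levels of macrophage (923 CPM), neutrophil (78 CPM), skeletal muscle (1060 CPM), squamous keratinocyte (568 CPM) and lymph node stroma (2.71 CPM) markers, though for macrophages Bad3SA 2 was close at 915 CPM. The part of these in its Ido1 level was not tested.

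Other enzymes of tryptophan breakdown were scarce or did not differ detectably. Ido2 and Tdo2, which catalyse the same step, averaged 0.0271 and 0.0876 CPM in Bad3SA and 0.0435 and 0.0979 CPM in Bad_WT and were too low for the edgeR fit (DESeq2 adjusted p = 0.754 for Ido2 and 0.912 for Tdo2). Kmo, kynurenine 3-monooxygenase, was at 0.803 ± 0.374 CPM in Bad3SA and 0.816 ± 0.63 CPM in Bad_WT, and Kynu, kynureninase, at 0.731 ± 0.299 CPM in Bad3SA and 0.75 ± 0.284 CPM in Bad_WT. A list of 18 genes covered tryptophan breakdown and the kynurenine-sensing receptor AHR with its targets, and 13 were tested in edgeR. None passed, against 1.38% of all genes, and none was under 0.05 before adjustment, against 16.2%. Before adjustment 0 of 16 were under 0.05 in DESeq2, against 10.6% of all genes. In limma voom 1 of 13, Ahr, was, against 18%. With end-point age 2 of 13, Ahr and Cyp1b1, were, against 7.78%. The smallest p values in the main edgeR fit belonged to Tiparp, an AHR target that represses the receptor, (log2 fold change -0.39, SE 0.19) and to Ahr (0.44, SE 0.32). The median log2 fold change of the list was 0.10, beside 0.00326 over all genes tested.

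Cd274, encoding PD-L1, was on average higher in Bad3SA, by less than the test required. It was at 1.98, 3.84 and 3.99 CPM (lowest, median and highest) in Bad3SA, against 0.931, 2.87 and 3.28 CPM in Bad_WT. Bad3SA 1, 2, 3 and 4, at 3.79, 3.89, 3.99 and 3.9 CPM, lay above every Bad_WT tumour, while Bad3SA 5 (3.27 CPM) and Bad3SA 6 (1.98 CPM) lay inside the Bad_WT range. The log2 fold change was 0.41 (SE 0.29, 95% interval -0.21 to 1.04, edgeR adjusted p = 0.480). It was 0.24 without Bad_WT 6, whose 0.931 CPM stood well under the next Bad_WT value of 2.6 CPM. Cd274 shares 511 exonic bases with AC119228.1 on the other strand, and the deposited counts held no gene under that symbol. With no strand setting given, reads of the 2 genes over those bases cannot be told apart.

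Pdcd1lg2, encoding PD-L2, was near the detection limit. It had 47 counts over the 6 Bad3SA tumours and 39 over the 6 Bad_WT tumours, too few to enter the fit. The values were 0.0278, 0.0923 and 0.256 CPM (lowest, median and highest) in Bad3SA, against 0.0163, 0.0887 and 0.149 CPM in Bad_WT. The highest was Bad3SA 2 and the lowest Bad_WT 6, and 5 of 6 Bad3SA tumours lay inside the Bad_WT range. The difference in mean CPM was 0.0232 (exact two-sided permutation p = 0.587, unadjusted).

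The CD28 and CTLA-4 ligands did not differ detectably. Cd86 (ENSMUSG00000022901, chromosome 16, 36603869 to 36666081) was at 3.78, 6.08 and 8.66 CPM in Bad3SA, against 3.79, 5.46 and 8.77 CPM in Bad_WT, as lowest, median and highest. The ranges were nearly the same, and the log2 fold change was 0.035 (SE 0.23, 95% interval -0.47 to 0.54, edgeR adjusted p = 0.949). Cd80 (ENSMUSG00000075122, chromosome 16, 38455561 to 38496335) was at 0.23, 0.546 and 1.13 CPM in Bad3SA, against 0.163, 0.419 and 0.774 CPM in Bad_WT. All Bad3SA tumours but Bad3SA 2 lay inside the Bad_WT range. The log2 fold change of Cd80 was 0.31 (SE 0.43, 95% interval -0.62 to 1.24, edgeR adjusted p = 0.731), and it was -0.029 without Bad3SA 2, the tumour with the most Cd80.

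Among the receptors that entered the fit, no difference was detected. Pdcd1 was at 0.876, 1.11 and 1.43 CPM (lowest, median and highest) in Bad3SA, against 0.212, 1.14 and 1.7 CPM in Bad_WT. All 6 Bad3SA tumours, spanning 1.63-fold, lay inside the Bad_WT range, which spanned 7.99-fold and 2.47-fold without Bad_WT 6. The log2 fold change of Pdcd1 was 0.056 (SE 0.40, 95% interval -0.8 to 0.92, edgeR adjusted p = 0.952). Lag3, whose product binds MHC class II (ENSMUSG00000030124, chromosome 6, 124904361 to 124911705), was at 2.5, 3.41 and 4.19 CPM in Bad3SA, against 1.65, 3.4 and 4.89 CPM in Bad_WT. All 6 Bad3SA tumours again lay inside the Bad_WT range, and the log2 fold change was 0.022 (SE 0.25, 95% interval -0.51 to 0.56, edgeR adjusted p = 0.970). Havcr2, encoding TIM-3, which myeloid cells also express (ENSMUSG00000020399, chromosome 11, 46454935 to 46481255), was at 3.37, 5.75 and 6.55 CPM in Bad3SA, against 3.66, 5.53 and 6.64 CPM in Bad_WT. All Bad3SA tumours but Bad3SA 6, the lowest of the 12, lay inside the Bad_WT range. The log2 fold change of Havcr2 was 0.014 (SE 0.20, 95% interval -0.42 to 0.45, edgeR adjusted p = 0.976), the narrowest interval of the 8. Tigit, a receptor for PVR and nectins (ENSMUSG00000071552, chromosome 16, 43648867 to 43664146), was at 0.167, 0.406 and 0.61 CPM in Bad3SA, against 0.0653, 0.344 and 0.508 CPM in Bad_WT. Bad3SA 2, 3 and 4 lay above every Bad_WT tumour and the other 3 inside the Bad_WT range. The log2 fold change of Tigit was 0.45 (SE 0.46, 95% interval -0.55 to 1.45, edgeR adjusted p = 0.635).

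**Figure D2:**
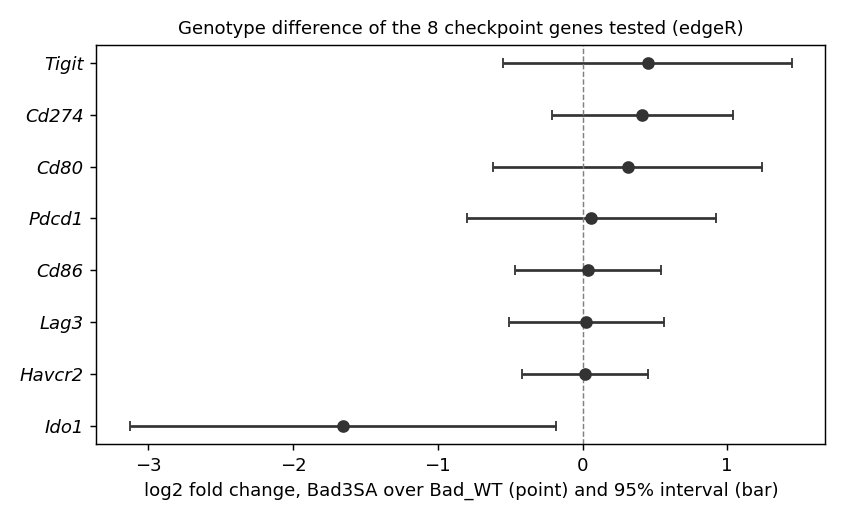
Log2 fold change of Bad3SA over Bad_WT (x axis) for the 8 checkpoint genes that entered the fit, with points for the edgeR estimate and bars for its 95% interval. The bar of Ido1, from -3.13 to -0.18, lies left of 0, and the other 7 bars cross 0.

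Ctla4 had few reads, and its higher values came from the Bad3SA tumours that stood apart from the rest. The gene (ENSMUSG00000026011) lies on chromosome 1, 60887000 to 60915832, plus strand. It had 65 counts over the 6 Bad3SA tumours and 24 over the 6 Bad_WT tumours and was too low to enter the fit. Levels were 0.0677, 0.0976, 0.0604, 0.204, 0.272 and 0.278 CPM in Bad3SA 1 to 6, against 0.0122, 0.0808, 0.0365, 0.0447, 0.0701 and 0.0817 CPM in Bad_WT 1 to 6. Bad3SA 4, 5 and 6 lay above every other tumour, and Bad3SA 1 and 3 lay inside the Bad_WT range. The difference in mean CPM was 0.109 (exact two-sided permutation p = 0.026, unadjusted), a log2 ratio of means of 1.59 that was 0.47 without Bad3SA 4, 5 and 6. With low genes kept in the edgeR fit the log2 fold change was 1.52 (SE 0.57, edgeR adjusted p = 0.288). Rpl18-ps1, a ribosomal protein pseudogene lying within Ctla4 on the same strand and sharing 0 exonic bases with it, was at 0.338 ± 0.143 CPM in Bad3SA and 0.179 ± 0.0781 CPM in Bad_WT, and its part in the Ctla4 counts was not tested. Foxp3, the factor that defines regulatory T cells, which carry much CTLA-4, was also too low for the edgeR fit, at 0.138 ± 0.0703 CPM in Bad3SA and 0.0944 ± 0.0541 CPM in Bad_WT (DESeq2 adjusted p = 0.641).

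Most checkpoint genes followed the same tumours up and down, which was not compared with other genes. Bad_WT 6 was the lowest of the 12 tumours for 7 of the 10 genes, Bad3SA 6 for 2 and Bad_WT 1 for 1, while Bad_WT 4 was the highest for 4 and Bad3SA 2 for 3. The summed level of 15 T cell markers was also lowest in Bad_WT 6, at 16.9 CPM against 18.8 to 26.0 CPM in the other Bad_WT tumours and 22.1 to 40.4 CPM in Bad3SA. The 10 macrophage markers summed to 330 CPM in Bad_WT 6, against 411 to 923 CPM in the other Bad_WT tumours and 379 to 915 CPM in Bad3SA. Fibroblast markers were also lowest in Bad_WT 6, at 293 CPM. Dendritic cell markers, led by Fscn1, summed highest there, at 299 CPM. Their mean log2 CPM, in which each marker counts equally, was instead the lowest of the 12 tumours there, at -0.17. The part of these cells in the checkpoint levels was not tested.

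**Figure D3:**
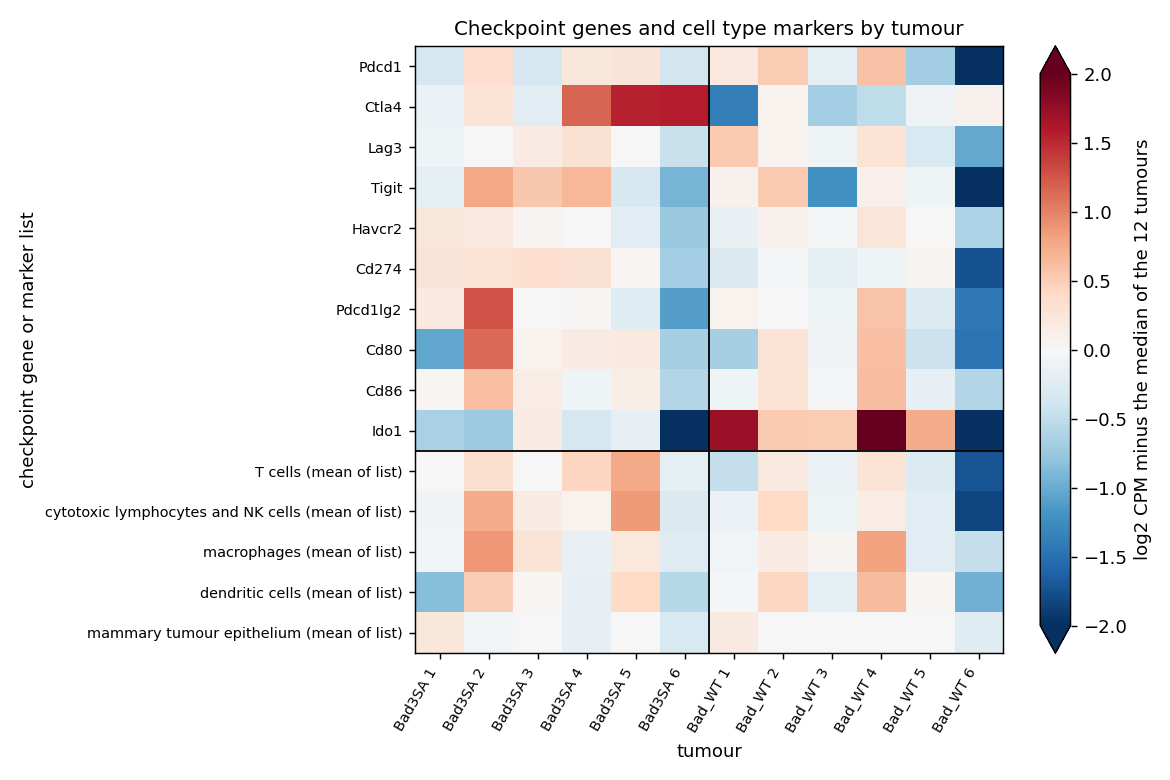
Log2 CPM of each checkpoint gene, and mean log2 CPM of each of 5 marker lists, as the difference from the median of the 12 tumours (colour, clipped at -2 and 2), with Bad3SA tumours left of the line and Bad_WT tumours right of it. The column of Bad_WT 6 is blue for 9 of the 10 genes, and the Ctla4 row is red in Bad3SA 4, 5 and 6.

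Across the 12 tumours 39 of the 45 pairs of checkpoint genes had a positive Pearson r of log2 CPM, with a median of 0.698. By permutation test with Benjamini-Hochberg adjustment over the 45 pairs, 29 pairs passed for r and 5 for Spearman's rho. Pairs of other genes were not computed, so whether these counts are particular to the checkpoint genes was not tested. Leaving out the 2 tumours farthest from the median on the x axis lowered the median r to 0.523, with 6 pairs at 0.7 or more. Within the genotypes the median r was 0.577 in Bad3SA and 0.814 in Bad_WT, the latter with Bad_WT 6 kept. Pdcd1lg2 and Cd86 had r = 0.911 and rho = 0.713 (permutation p = 2.9e-04 and 0.0119, adjusted p = 0.00652 and 0.0597), with r = 0.86 without the farthest 2. Within the genotypes this r was 0.932 in Bad3SA and 0.905 in Bad_WT. Cd274 and Ido1, both interferon-gamma inducible, had r = 0.647 and rho = 0.028 (permutation p = 0.0413 and 0.939, adjusted p = 0.0599 and 0.96), and r was -0.739 without Bad3SA 6 and Bad_WT 6. Their positive r therefore rested on those tumours. Within the genotypes, with those tumours kept, it was 0.863 in Bad3SA and 0.913 in Bad_WT. Ctla4 ran apart from the rest, with r between -0.483 (Ido1) and 0.104 (Cd80). Counts per tumour were only 1 to 20 for Ctla4 and 1 to 21 for Pdcd1lg2, which limits each r that involves them.

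The genes most like each member, by Pearson r over the 12 tumours among 13279 genes, are given as a description. Cd274 was followed most closely by Gbp5, an interferon-induced GTPase (r = 0.972, rho = 0.923, r = 0.853 without the farthest 2 tumours), and then by Cxcl17 (0.959) and Muc15 (0.944). Cd86 was followed by Laptm5 (r = 0.99, rho = 0.972) and by Ncf1 (0.982), which encodes a subunit of the phagocyte NADPH oxidase. For Ido1 the closest were Wnt4 (r = 0.936, rho = 0.937), Dnase1l3 (0.936) and Dzip1l (0.927). Pdcd1 was closest to Tlr1 (0.964), Slc44a2 (0.956) and Cyp27a1 (0.955), and Lag3 to Acsbg1 (0.947), Bik (0.937) and Ganc (0.922). For Tigit they were Plcb2 (0.925), Pde1b (0.924) and Ifi206 (0.922), for Havcr2 Pde7b (0.968), Sash1 (0.942) and Hs3st3b1 (0.941), and for Cd80 C1qtnf2 (0.942), Gpr132 (0.938) and Mgp (0.937). All of them share the libraries, and with 12 tumours a single one such as Bad_WT 6 weighs on each r.

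Set against Cd3d, Cd3e and Cd3g of the same tumour, 4 of the 5 receptors were lower in Bad3SA on average, with overlapping ranges, and Ctla4 was higher. The mean log2 CPM of Cd3d, Cd3e and Cd3g, which encode chains of the T cell receptor complex, was 0.50 ± 0.52 in Bad3SA and -0.31 ± 0.89 in Bad_WT (SD, n = 6 each). It was -2.0 in Bad_WT 6, against -0.47 to 0.38 in the other Bad_WT tumours. The log2 fold changes of Cd3d, Cd3e and Cd3g were 1.03, 0.58 and 0.59. Lck and Cd247, from the same T cell list, stood at -0.17 and -0.15, and the receptors were not set against them. Pdcd1 minus the mean of Cd3d, Cd3e and Cd3g was -0.33 ± 0.24 log2 units in Bad3SA and 0.21 ± 0.45 in Bad_WT. Lag3 minus this mean was 1.27 ± 0.47 in Bad3SA and 2.00 ± 0.60 in Bad_WT, and Havcr2 minus it was 1.92 ± 0.61 in Bad3SA and 2.73 ± 0.62 in Bad_WT. For Tigit the values were -1.83 ± 0.71 in Bad3SA and -1.55 ± 0.68 in Bad_WT, and for Ctla4 -3.07 ± 0.70 in Bad3SA and -3.38 ± 1.15 in Bad_WT. No test was made on these differences. Of the 15 T cell markers, 13 had a positive log2 fold change (median 0.59) and 0 passed in edgeR, with 2 of 15, Cd3d and Cd4, under 0.05 before adjustment, where 16.2% of all genes were. DESeq2 and limma voom also called 0 of them.

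**Figure D4:**
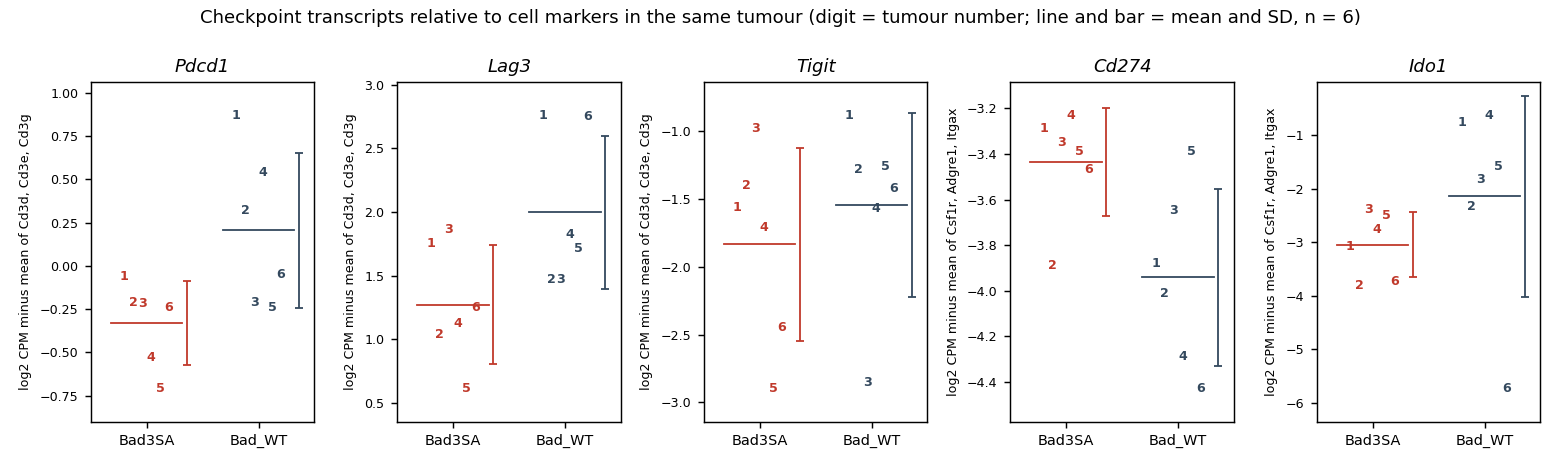
Log2 CPM of Pdcd1, Lag3 and Tigit minus the mean log2 CPM of Cd3d, Cd3e and Cd3g, and of Cd274 and Ido1 minus that of Csf1r, Adgre1 and Itgax (y axes), in Bad3SA and Bad_WT tumours, with digits for tumour numbers, lines for means and bars for SD. Pdcd1 averages -0.33 in Bad3SA and 0.21 in Bad_WT, and Cd274 averages -3.44 in Bad3SA and -3.94 in Bad_WT.

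Set against the myeloid markers Csf1r, Adgre1 and Itgax, the ligands kept the pattern of their plain levels. The mean of these markers was 5.20 ± 0.45 log2 CPM in Bad3SA and 5.23 ± 0.52 in Bad_WT. Cd86 minus this mean was -2.64 ± 0.12 in Bad3SA and -2.71 ± 0.16 in Bad_WT, the narrowest spread of the genes compared in this way. Cd274 minus it was -3.44 ± 0.24 in Bad3SA and -3.94 ± 0.39 in Bad_WT, and Ido1 minus it was -3.05 ± 0.61 in Bad3SA and -2.15 ± 1.87 in Bad_WT. Havcr2, unlike in the comparison with Cd3d, Cd3e and Cd3g, was close between genotypes on this scale, at -2.78 ± 0.22 in Bad3SA and -2.82 ± 0.26 in Bad_WT.

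Partners and relatives of the checkpoint genes were examined in 8 lists of 98 genes, chosen with earlier results of these data known. Of the 82 tested, 0 passed in edgeR, against 1.38% of all genes, and 13 were under 0.05 before adjustment, against 16.2%. DESeq2 tested 96 and called 2, Cd276 and Entpd1, against 4.21% of all genes. Limma voom called 1 of 82, against 3.18%. With end-point age in the edgeR fit 0 passed, against 0.405% of all genes, and 6 were under 0.05 before adjustment, against 7.78%. Entpd1 was among these 6 and Cd276 was not. Among CD28 and B7 family genes outside the 10, 4 of 7 had a positive log2 fold change (median 0.17). Cd276, encoding the inhibitory B7 family member B7-H3, was at 40.2 ± 6.68 CPM in Bad3SA (32.7 to 51.5) and 73.2 ± 26.8 CPM in Bad_WT (46.0 to 113). Its log2 fold change was -0.86 (SE 0.21, edgeR adjusted p = 0.0691), and it passed in the authors' deposited table (0.80 for Bad_WT relative to Bad3SA, adjusted p = 0.012). Cd28 stood at 0.72 (SE 0.38, edgeR adjusted p = 0.367).

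Among partners of TIGIT, 2 of 6 tested genes were positive (median -0.17), with Nectin2 at -0.20 (SE 0.091) and Nectin3 at -0.48 (SE 0.25). Among ligands of TIM-3, LAG-3 and BTLA and related receptors, 6 of 8 were positive (median 0.23). Lgals9, encoding galectin-9, a ligand of TIM-3, was at 267 ± 53.5 CPM in Bad3SA and 173 ± 49 CPM in Bad_WT (0.63 on the log2 scale with SE 0.19, and edgeR adjusted p = 0.148), and Cd160 stood at 1.07 (SE 0.35). Among costimulatory TNF family pairs 5 of 7 were positive (median 0.22), with Tnfrsf4 (OX40) at 0.98 (SE 0.36) and Cd27 at 1.19 (SE 0.59).

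Of the innate and adenosine checkpoints 11 of 13 tested genes were positive (median 0.35). Entpd1, encoding CD39, which degrades extracellular ATP, ran the other way, at 26.9 ± 12.4 CPM in Bad3SA (14.1 to 45.5) and 79.7 ± 49.2 CPM in Bad_WT (15.6 to 143). Its log2 fold change was -1.57 (SE 0.45, edgeR adjusted p = 0.127), and it passed in the authors' deposited table (1.22 for Bad_WT relative to Bad3SA, adjusted p = 0.0188). Cd47, the signal that restrains phagocytosis through SIRPA, stood at 0.37 (SE 0.13). In interferon-gamma signalling 8 of 16 genes were positive (median 0.03). Cmtm4, whose product stabilises PD-L1, stood at -0.30 (SE 0.18), and Ifng itself was too low for the edgeR fit (DESeq2 adjusted p = 0.925), at 0.0335 CPM in Bad3SA and 0.0386 CPM in Bad_WT. Among factors of T cell exhaustion and regulatory T cells 6 of 12 were positive (median -0.11), with Cd101 at 1.13 (SE 0.44) and Prdm1 at -0.64 (SE 0.28).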

How the data were processed

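Polyadenylated RNA of 12 breast tumours, 1 per mouse, was sequenced. The authors deposited raw counts per gene, and a comparison with a mean signal of normalised counts, log2 fold changes, their standard error and Wald score, and p-values, per the file headers. GRCm38 is the build, and STAR 2.7.9a, fastp 0.23.1 and DESeq2 are the tools, listed in the submitters' processing notes. The counting method and its use of strand were not given in the sources used here. The sign of the authors' deposited table was taken from its Spearman rho of -0.997 with the fold changes computed here, across 18019 genes.

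Genes were filtered with filterByExpr, TMM-normalised and tested for genotype with edgeR 4.0.16 (quasi-likelihood, robust; R 4.3.3), with Benjamini-Hochberg adjustment over all 18019 genes tested and a threshold of 0.05. The fit was tested on simulated counts. The 95% intervals use the t quantile at the fit's degrees of freedom. Log2 CPM used a prior count of 2. Genes too low for the fit (Pdcd1lg2, Ctla4) were compared by exact permutation of mean CPM. Levels per kb used exons of GENCODE release M21.

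The members and lists were chosen with earlier results of these data known. The named genes are the 10 members, in each pathway list the genes that passed or else the 2 with the smallest p, the 3 most abundant of a marker list, and the 3 genes most like each member. Other genes named were chosen after their values were seen. Some genes that the rule names are not reported here. Alternatives were DESeq2 1.42.0, limma 3.58.1 voom with quality weights, DESeq2 size factors, other filters, a non-robust dispersion, end-point age, a block for the number in the sample titles, and leaving out single tumours. Leaving out Bad3SA 4, 5 and 6 was added after seeing the data.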

Additional observations from a re-analysis of the deposited data

Results flagged for a closer look

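Within each genotype the highest and lowest tumour of each checkpoint gene was compared with its nearest neighbour, in CPM and not in log2 CPM. Over 20 groups 3 values stood apart by Dixon's criterion at 95% confidence, where chance gives about 1 in 20 groups. Cd274 in Bad_WT 6 was 0.931 CPM, against 2.6 CPM in the next Bad_WT tumour. Cd274 in Bad3SA 6 was 1.98 CPM, against 3.27 CPM in the next Bad3SA tumour. Pdcd1lg2 in Bad3SA 2 was 0.256 CPM, against 0.108 CPM in the next Bad3SA tumour, at 21 and 8 counts. The log2 scale was not searched, and there Ido1 stood at -1.37 in Bad_WT 6, against 3.29 in the next Bad_WT tumour.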

How the results depend on the processing

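No checkpoint gene passed under any alternative run. With low genes kept and with DESeq2, all 10 were tested. The number of genes called over the whole table, 249, was 998 with DESeq2, 573 with limma voom, 163 with at least 1 CPM in 6 tumours, 73 with end-point age, 105 with the replicate block, 151 without Bad3SA 4, 5 and 6, and 147 to 315 with 1 tumour left out.

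Ido1 kept its negative sign throughout, with edgeR, DESeq2 or limma adjusted p from 0.0547 to 0.666, and log2 fold changes of -1.91 to -1.17 with 1 tumour left out, -1.86 with end-point age and -1.05 with the replicate block. Cd274 and Tigit kept their positive sign, at 0.24 to 0.53 and 0.25 to 0.69 with 1 tumour left out. Other genes changed sign. With limma voom Pdcd1 was -0.089. With low genes kept Lag3 was -0.014 and Havcr2 -0.015. With end-point age Pdcd1 was -0.35, Lag3 -0.055, Cd80 -0.43 and Cd86 -0.16. With 1 tumour left out the ranges were -0.16 to 0.22 for Pdcd1, -0.12 to 0.17 for Lag3, -0.078 to 0.12 for Havcr2, -0.029 to 0.54 for Cd80 and -0.096 to 0.18 for Cd86. Without Bad3SA 4, 5 and 6 Pdcd1 was -0.0054 and the log2 ratio of Ctla4 was 0.47, against 1.59 in all tumours and 1.37 to 1.76 with 1 left out. For Pdcd1lg2 that range was -0.11 (without Bad3SA 2) to 0.58. In fits that drop low genes these 2 genes gave no value, nor did Tigit and Cd80 with at least 1 CPM in 6 tumours. The cause of these changes was not tested.

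The title numbers gave no clear sign of pairing the tumours. The correlation of same-numbered deviations ran from -0.281 to 0.295 and only number 6 was closest to its own number. So few correlations cannot exclude a pairing. The replicate block turned no sign among the 8 genes. Ctla4 and Pdcd1lg2, at 1 to 21 counts per tumour, are limited by depth.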
